A study of Mus musculus with 2 samples.

Results

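Small nucleolar RNAs (snoRNAs) and the long noncoding RNAs that carry them were examined in CGR8, a line of mouse embryonic stem cells that needs no feeder cells and was grown on gelatin in medium with serum and leukaemia inhibitory factor. One culture had been given Set1a siRNA and the other a negative control siRNA, both transfected repeatedly over 72 h, and each of the 2 groups was represented by 1 library. The members were chosen by symbol and selected on their RPKM values, as all genes whose symbol begins with Snord, Snora or Snhg, plus Gas5, with a value above 0 in at least 1 library. The rule found 98 of the 22421 genes listed, among them 53 C/D box snoRNAs (Snord), 28 H/ACA box snoRNAs (Snora) and 17 host RNAs (Snhg and Gas5). Another 24 genes with such symbols were listed at 0 in both libraries. The question put to the cells was how SET1A, a methyltransferase of histone H3 lysine 4, affects gene expression at large. An siRNA against Set1a was given to a single line, and nothing in the sources used here tells whether the libraries came from poly(A)-selected RNA.

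C/D box snoRNAs carry a C box near their 5′ end and a D box near their 3′ end, bind the methyltransferase fibrillarin and guide methylation of ribose in ribosomal RNA. H/ACA box snoRNAs carry an ACA motif just before their 3′ end, bind the pseudouridine synthase dyskerin and guide pseudouridylation. In vertebrates most snoRNAs are cut out of introns of a host gene, which is often a ribosomal protein gene and sometimes a gene, such as Gas5 or Snhg1, whose spliced RNA makes no known protein of its own and is rapidly degraded during translation.

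Setd1a, the gene targeted by the siRNA, had 11.97 RPKM (reads scaled by transcript length and library depth) in the Set1a siRNA library and 14.2 RPKM in the negative control siRNA library. Their ratio of 0.846 had a 95% counting interval from 0.746 to 0.959. The Set1a siRNA library thus kept most of the control level of Setd1a RNA. Setd1a had 456 reads with Set1a siRNA and 559 with the negative control siRNA. Of the 8527 genes with 100 to 2000 reads over both libraries, 10.9% had an interval below 1. The depths recovered from the values were 6421185 reads with Set1a siRNA and 6655821 reads with the negative control siRNA. Each ratio below is Set1a siRNA over negative control siRNA per unit of depth, and its exact interval covers counting error only. As each group held a single library, nothing here was checked against replicates, and each ratio compares these libraries and not the treatments in general. The cells expressed the stem cell gene Pou5f1 at 740 RPKM with Set1a siRNA and 745 RPKM with the negative control siRNA, while none of 6 lineage markers exceeded 1.25 RPKM in either library. Across 11789 genes averaging at least 1 RPKM over the libraries the median log2 fold was 0.0065, where the log2 fold is log2((Set1a siRNA RPKM + 1)/(negative control siRNA RPKM + 1)).

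The sequences of the snoRNAs on which most of the results rest are given first, from GENCODE M21 on GRCm38, 5′ to 3′. They are the most-read member of each class, the 3 snoRNAs whose counting interval left out 1, and Snord2 and Snora24, the other members past 2-fold with at least 10 reads. Capitals mark a C box match (TGATG in the first 25 bases), a D box match (CTGA in the last 20 bases) or an ACA in the last 9 bases, and the lengths used in counting may differ by some bases from these.
Snord96a: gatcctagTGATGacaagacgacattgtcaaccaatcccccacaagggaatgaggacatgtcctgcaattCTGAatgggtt
Snord22: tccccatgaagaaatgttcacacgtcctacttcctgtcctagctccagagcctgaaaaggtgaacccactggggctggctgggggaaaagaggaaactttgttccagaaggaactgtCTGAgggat
Snord16a: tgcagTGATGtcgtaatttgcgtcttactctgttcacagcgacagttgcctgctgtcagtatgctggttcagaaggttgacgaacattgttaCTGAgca
Snord2: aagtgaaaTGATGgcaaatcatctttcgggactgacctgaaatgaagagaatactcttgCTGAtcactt
Snora65: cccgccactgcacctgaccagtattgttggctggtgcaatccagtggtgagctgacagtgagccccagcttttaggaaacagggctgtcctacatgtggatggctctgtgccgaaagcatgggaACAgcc
Snora70: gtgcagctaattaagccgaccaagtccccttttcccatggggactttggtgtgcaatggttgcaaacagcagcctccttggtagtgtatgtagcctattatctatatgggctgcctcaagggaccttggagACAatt
Snora24: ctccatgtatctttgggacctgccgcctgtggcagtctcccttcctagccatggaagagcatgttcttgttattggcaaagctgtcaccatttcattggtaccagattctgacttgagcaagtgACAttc

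These letters separated the classes that the symbols name. Of the 52 C/D box members with a sequence, 45 (86.5%) held the C box match, 50 (96.2%) the D box match and 43 (82.7%) both, and 4 (7.69%) ended in an ACA. Of the 28 H/ACA box members, 26 (92.9%) held the ACA, 0 the C box match and 3 (10.7%) the D box match. Among 1005 RefSeq miRNA hairpins, taken as other small RNAs, 0.398% held both C and D box matches and 14.3% the ACA. Only the given strand was searched, and a missing match says only that these letters are not in that window.

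The snoRNAs were read very thinly. The 53 C/D box members were 45 to 221 nucleotides long, with a median of 4 reads over both libraries, and the 28 H/ACA box members were 62 to 198 nucleotides long, with a median of 5. The 17 host RNAs, 183 to 5864 nucleotides long, had a median of 280 reads. It was 345 for the 11789 genes averaging at least 1 RPKM, a floor not set for these host RNAs. Of the 81 snoRNAs, 59 had fewer than 10 reads and 4 had at least 30. With Set1a siRNA alone, 10 C/D and 1 H/ACA box members had a read, and with the negative control siRNA alone, 11 C/D and 3 H/ACA box members did. A read inside an intronic snoRNA may come from the snoRNA or from host RNA not yet spliced, and the deposited values do not tell these apart. For 15 snoRNAs, Snord22 among them, an exon of a host transcript in the reference, other than a retained intron, also overlaps. Reads from that transcript may then be included.

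**Figure D1:**
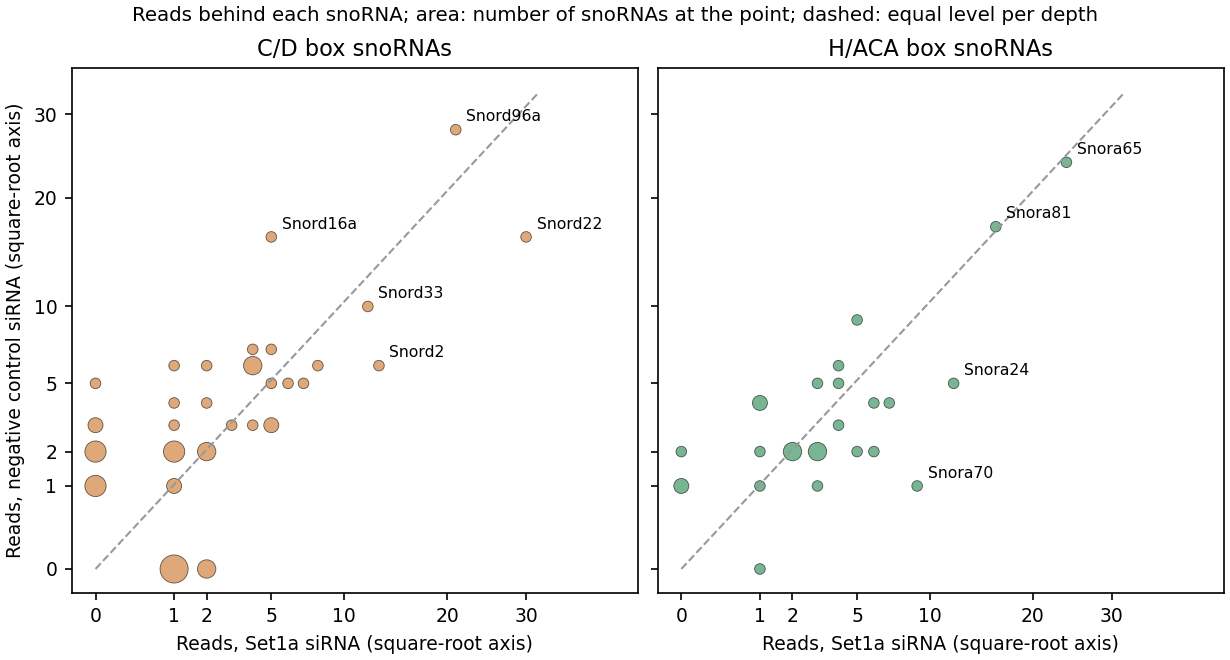
Reads of each snoRNA with Set1a siRNA (horizontal, square-root axis) and with the negative control siRNA (vertical, square-root axis), C/D box members on the left and H/ACA box members on the right. The area of a point gives the number of snoRNAs at that pair of values, and the dashed line marks equal levels per depth; most snoRNAs lie at or below 5 reads, Snord22 lies at 30 with Set1a siRNA and 16 with the negative control siRNA, and Snora70 at 9 with Set1a siRNA and 1 with the negative control siRNA.

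Summed by class, neither kind of snoRNA differed between the libraries by more than counting error. The C/D box members summed to 177 reads with Set1a siRNA and 203 reads with the negative control siRNA, a ratio of 0.904 (0.735 to 1.11). The H/ACA box members summed to 128 reads with Set1a siRNA and 115 reads with the negative control siRNA, a ratio of 1.15 (0.890 to 1.497). These intervals overlap, which is not a test of the difference between the snoRNA classes, and that difference was not tested. Over all 81 snoRNAs the sums were 305 reads with Set1a siRNA and 318 reads with the negative control siRNA, a ratio of 0.994 (0.847 to 1.17). The host RNAs, with 2747 reads for Set1a siRNA and 3529 reads for the negative control siRNA, had a ratio of 0.807 (0.767 to 0.848), which overlaps the C/D box interval and lies below the interval of the H/ACA box members.

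Giving each member the same weight, the median log2 fold was -0.38 over the 50 C/D box members averaging at least 1 RPKM, 0.05 over 23 H/ACA box members and -0.32 over 16 host RNAs. With at least 10 reads over both libraries it was -0.15 over 14 C/D box members, 0.30 over 8 H/ACA box members and -0.32 over 14 host RNAs. Of the first set of C/D box members 24 lay above 0 and 26 below, of the H/ACA box members 15 and 8, and of the host RNAs 4 and 12. Members with the same reads in both libraries count as above 0, because the negative control library was deeper. Floor aside, these were 7 C/D box members, 5 H/ACA box members and 2 host RNAs. The H/ACA box median is that of Snora65, with 24 reads in each library. The C/D box median stands amid folds that are mostly set by single reads, with quartiles of -1.48 and 0.48, while the quartiles were -0.49 and -0.03 for host RNAs and -0.14 and 0.15 for all genes. Over all 73 snoRNAs above this floor the median, 0.04, was above 0 although the summed ratio was just below 1. That median is the value of Snora33, with 2 reads in each library. Where members at or under 3 reads in both libraries were left out and a 0 was set to that limit of 3 reads, the medians of the log2 ratios were -0.40 for 22 C/D box members, 0.05 for 15 H/ACA box members and -0.37 for 15 host RNAs.

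Among C/D box snoRNAs, Snord96a, which guides methylation of the ribosomal RNA of the large subunit in human, had the most reads. It was at 42.5 RPKM from 21 reads with Set1a siRNA and at 54.6 RPKM from 28 reads with the negative control siRNA, a ratio of 0.777 (0.420 to 1.42). Snord22, known from frog oocytes as a snoRNA needed to process the small-subunit rRNA, went the other way, at 37.1 RPKM from 30 reads with Set1a siRNA and 19.1 RPKM from 16 reads with the negative control siRNA. Its ratio was 1.94 (1.03 to 3.82), so the interval just missed 1. Snord16a, a guide for the small-subunit rRNA in human, was at 8.56 RPKM from 5 reads with Set1a siRNA and 26.4 RPKM from 16 reads with the negative control siRNA. Its ratio was 0.324 (0.0928 to 0.925). Snord22 and Snord16a were the 2 C/D box members of 53 whose intervals left out 1.

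The other well-read C/D box members all had intervals that included 1. Snord2, held by the translation factor gene Eif4a2, was at 29.8 RPKM from 13 reads with Set1a siRNA and 13.3 RPKM from 6 reads with the negative control siRNA, a ratio of 2.25 (0.796 to 7.21). Rpl13a, a ribosomal protein gene, held 3 more of the 8 most-read members. Snord33 had 12 reads with Set1a siRNA and 10 with the negative control siRNA, Snord32a had 8 with Set1a siRNA and 6 with the negative control siRNA, and Snord35a had 5 with Set1a siRNA and 7 with the negative control siRNA. With Snord34, the 4 snoRNAs of Rpl13a summed to 29 reads with Set1a siRNA and 26 reads with the negative control siRNA, a ratio of 1.16 (0.657 to 2.04). Snord55 had 7 reads with Set1a siRNA and 5 with the negative control siRNA.

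Among the H/ACA box snoRNAs, Snora65 and Snora81 had close levels in both libraries. Snora65, a guide for the large-subunit rRNA in human, had 24 reads in each library and 31.7 RPKM with Set1a siRNA against 30.6 RPKM with the negative control siRNA, a ratio of 1.04 (0.564 to 1.91). Snora81, held by Eif4a2 like Snord2, was at 15.2 RPKM from 16 reads with Set1a siRNA and 15.6 RPKM from 17 reads with the negative control siRNA, a ratio of 0.976 (0.461 to 2.05). Snora70, a guide for the small-subunit rRNA in human, differed most, at 10.9 RPKM from 9 reads with Set1a siRNA and 1.16 RPKM from 1 read with the negative control siRNA. Its ratio of 9.33 has a counting interval of 1.29 to 409, the only H/ACA box interval of 28 that left out 1. The width of that interval comes from the single control read.

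Snora24 was at 14.4 RPKM from 12 reads with Set1a siRNA and 5.78 RPKM from 5 reads with the negative control siRNA, a ratio of 2.49 (0.816 to 9.01). It lies wholly inside an exon of the listed Snhg8 transcript, so a read there may have been counted for Snhg8 too. The remaining 4 of the 8 most-read H/ACA box members were divided in direction, and each interval included 1. Snora68 had 5 reads with Set1a siRNA and 9 with the negative control siRNA, and Snora7a, in Rpl32, had 4 with Set1a siRNA and 6 with the negative control siRNA. Snora28, in the translation factor gene Eif5, had 7 reads with Set1a siRNA and 4 with the negative control siRNA, and Snora3, in Rpl27a, had 6 with Set1a siRNA and 4 with the negative control siRNA.

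By a rule of size alone, a log2 fold of at least 1 either way for members averaging at least 1 RPKM, 14 members were at least 2-fold higher with Set1a siRNA and 17 at least 2-fold lower. All 31 were snoRNAs: 9 higher and 15 lower of 50 C/D box members, 5 higher and 2 lower of 23 H/ACA box members, and 0 of 16 host RNAs either way. Over all genes the rule called 0.772% higher and 0.407% lower. Over 90 genes under 200 nucleotides outside the members it called 18.9% higher and 21.1% lower, and over genes of 200 nucleotides or more 0.516% and 0.103%. The snoRNAs, with 14 (19.2%) higher and 17 (23.3%) lower of 73, were thus near other short RNAs, so their count is no result about snoRNAs.

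Few of these calls rested on more than a handful of reads. With at least 10 reads over both libraries, 22 snoRNAs were left, of which 3 were at least 2-fold higher (Snord2, Snora24 and Snora70) and 1 lower (Snord16a). By counting intervals, 2 of 81 snoRNAs were higher and 1 was lower, against 2.22% and 0.0% of the other short RNAs. Just inside the threshold were Snora16a with a log2 fold of 1.08, Snora41 with 1.11, Snord2 with 1.11 and Snora24 with 1.18. Just outside were Snord22 with 0.92, Snhg4 with -0.85, Snord45b with -0.78 and Snord19 with -0.76.

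Near-identical members cannot be told apart reliably. Snord1b and Snord1c differ by 2 edits over 76 aligned positions (97.4% identity), and the rule for reads that match several places is not known. Snord1a had 0 reads with Set1a siRNA and 5 with the negative control siRNA, while Snord1b had 1 with Set1a siRNA and 0 with the negative control siRNA. Snord1c had 1 read with Set1a siRNA and 2 reads with the negative control siRNA. Summed, these 3 had 2 reads with Set1a siRNA and 7 with the negative control siRNA, a ratio of 0.296 (0.0300 to 1.56).

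Host RNAs had far more reads, and nearly every interval that left out 1 lay below it. Of the 17, 8 had a counting interval below 1 (Gas5, Snhg1, Snhg3, Snhg4, Snhg5, Snhg8, Snhg12 and Snhg14), 1 had an interval above 1 (Snhg11) and 8 had intervals that included 1. Over all genes above the floor, 11.5% had an interval below 1 and 12.4% one above.

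**Figure D2:**
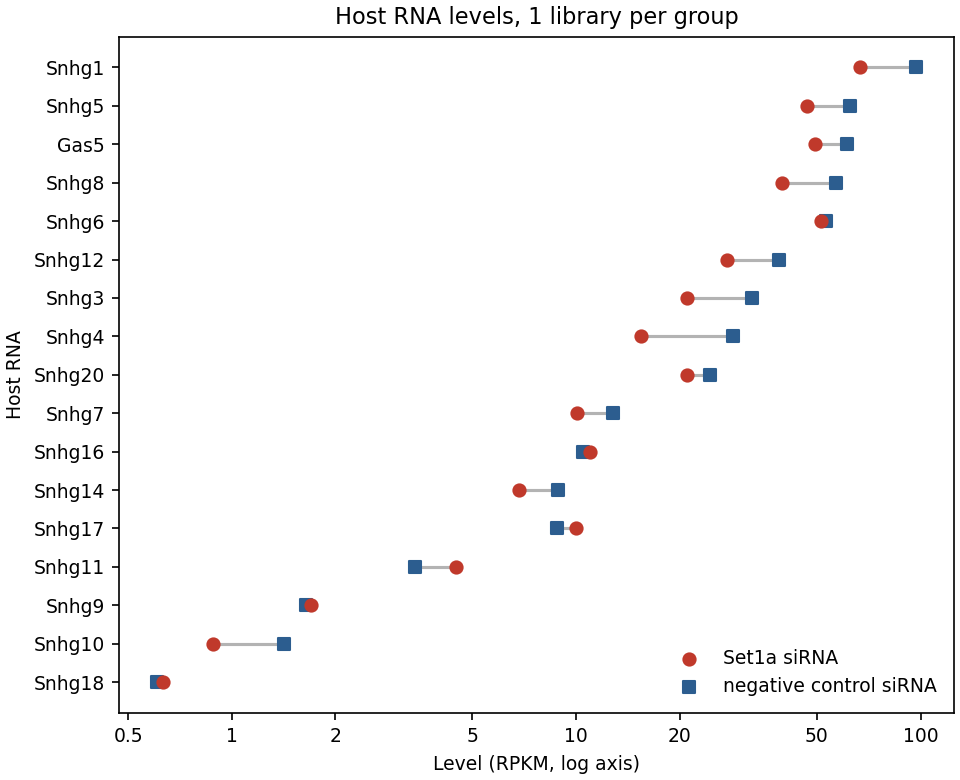
Level of each host RNA in RPKM (log axis) with Set1a siRNA (circles) and with the negative control siRNA (squares), 1 library each, ordered by the level with the negative control siRNA. Snhg1 lies at 66.7 with Set1a siRNA and 96.9 with the negative control siRNA, Snhg4 at 15.4 with Set1a siRNA and 28.6 with the negative control siRNA, and Snhg6 at 51.3 with Set1a siRNA and 53.2 with the negative control siRNA.

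Per unit of length, Snhg1 was the highest of these RNAs. Snhg1, which holds Snord22 among other C/D box snoRNAs, was at 66.7 RPKM from 204 reads with Set1a siRNA and 96.9 RPKM from 307 reads with the negative control siRNA. Its ratio was 0.689 (0.574 to 0.825). Snhg5, host of the snoRNA U50, was at 46.9 RPKM from 304 reads with Set1a siRNA and 62.5 RPKM from 420 reads with the negative control siRNA, a ratio of 0.750 (0.645 to 0.872). Both RNAs thus lay about as far below 1 as each other, with overlapping intervals.

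Gas5, first found as an RNA that accumulates when cells stop growing, was at 49.5 RPKM from 811 reads with Set1a siRNA and 61.3 RPKM from 1042 reads with the negative control siRNA. Its ratio was 0.807 (0.735 to 0.885). The listed Gas5 entry is not the spliced host RNA: it has 4 exons over 2556 nucleotides in GENCODE, which calls it a retained intron, and its exons contain 6 small RNA genes, among them Snord78. Reads from those small RNAs and from unspliced Gas5 RNA can therefore be part of its value. None of the 6 was among the members.

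Snhg4 had the lowest ratio of the well-read host RNAs. It was at 15.4 RPKM from 114 reads with Set1a siRNA and 28.6 RPKM from 219 reads with the negative control siRNA, a ratio of 0.540 (0.426 to 0.680). Snhg8, host of Snora24, was at 39.5 RPKM from 199 reads with Set1a siRNA and 56.7 RPKM from 296 reads with the negative control siRNA, a ratio of 0.697 (0.579 to 0.837). Snhg12 was at 27.5 RPKM from 107 reads with Set1a siRNA and 38.9 RPKM from 157 reads with the negative control siRNA, a ratio of 0.706 (0.547 to 0.909). The intervals of Snhg4, Snhg8 and Snhg12 overlap one another.

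For 2 of the lower host RNAs reads from the opposite strand can be included, since the treatment of strand is not known. Snhg3, known as the host of the H/ACA box snoRNA U17, was at 21.03 RPKM from 59 reads with Set1a siRNA and 32.3 RPKM from 94 reads with the negative control siRNA, a ratio of 0.651 (0.462 to 0.910). Its exons overlap Gm17300 on the other strand. Snhg14, an imprinted RNA that runs antisense to Ube3a, was at 6.85 RPKM with Set1a siRNA and 8.87 RPKM with the negative control siRNA, a ratio of 0.771 (0.626 to 0.949) for its transcript with the most reads, and its exons overlap those of Ube3a. A second Snhg14 transcript, at 9.09 RPKM with Set1a siRNA and 10.2 RPKM with the negative control siRNA, had a ratio of 0.890 (0.698 to 1.14). Without hosts that share exons with the other strand, 6 intervals lay below 1 and the summed ratio was 0.807.

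The other host RNAs did not share this direction clearly. Snhg11 was higher, at 4.49 RPKM from 169 reads with Set1a siRNA and 3.41 RPKM from 133 reads with the negative control siRNA, a ratio of 1.32 (1.04 to 1.67). Snhg17 was at 9.96 RPKM with Set1a siRNA and 8.80 RPKM with the negative control siRNA, a ratio of 1.13 (0.923 to 1.39), and its second transcript gave 1.12. Snhg16 was at 11.0 RPKM with Set1a siRNA and 10.5 RPKM with the negative control siRNA, a ratio of 1.051 (0.826 to 1.34), with 1.04 and 1.09 for its other transcripts. Snhg6, host of Snord87, was among the highest of the group and nearly level. It was at 51.3 RPKM with Set1a siRNA and 53.2 RPKM with the negative control siRNA, a ratio of 0.965 (0.757 to 1.23). Its exons overlap those of Mcmdc2 on the other strand, so reads of Mcmdc2 can be included.

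Snhg7 and Snhg20 lay below 1 with intervals that included it. Snhg20 was at 21.02 RPKM with Set1a siRNA and 24.5 RPKM with the negative control siRNA, a ratio of 0.857 (0.630 to 1.16). Snhg7 was at 10.1 RPKM with Set1a siRNA and 12.8 RPKM with the negative control siRNA, a ratio of 0.790 (0.531 to 1.17), with reads that rest on the shortest length, 742 nucleotides, at which both values are whole. Snhg9, Snhg10 and Snhg18 had too few reads to compare: Snhg9 had 2 in each library, Snhg18 had 6 in each, and Snhg10 had 3 with Set1a siRNA and 5 with the negative control siRNA.

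**Figure D3:**
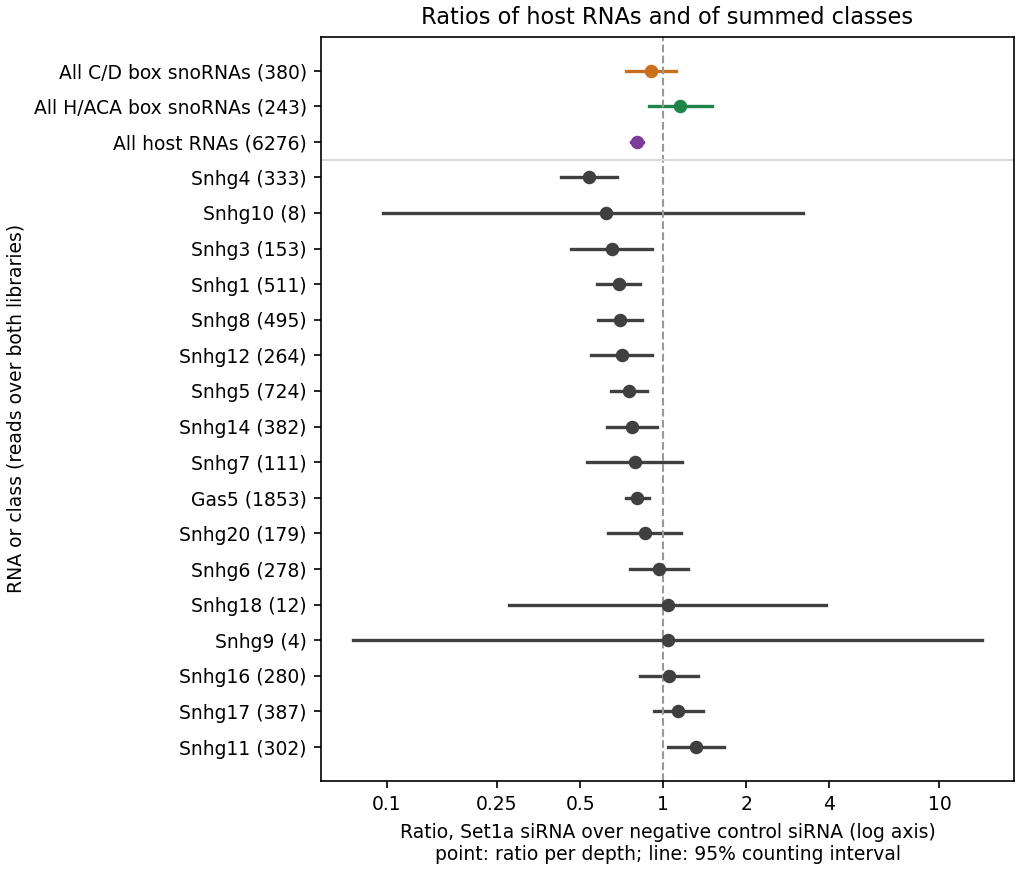
Ratio of Set1a siRNA over negative control siRNA per depth (log axis) for the 3 summed classes and for each host RNA, with 95% counting intervals as lines and the reads over both libraries in brackets. The intervals of 8 host RNAs and of their sum lie wholly below 1, and that of Snhg11 lies above.

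An interval can leave out 1 only where reads suffice, so the host RNAs were set beside genes of like read number. Of the 14 host RNAs with 100 to 2000 reads over both libraries, a range chosen after the values were seen, 8 (57.1%) had an interval below 1 and 1 (7.14%) one above, with a median ratio of 0.781. Among all 8527 genes in that range, 10.9% had an interval below 1 and 12.4% one above, with a median ratio of 1.003. Among 78 other genes that the reference calls lncRNA in that range, 20.5% were below and 6.41% above, with a median ratio of 0.960. Among 3216 genes of 400 to 2600 nucleotides in that range, 11.2% were below and 10.4% above. These shares describe the present libraries, and how host RNAs vary between cultures was not tested.

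The start sites of the lower host RNAs were compared because those RNAs lay on the same side of 1 together. The letters TATAA, within the 40 bases before an annotated RefSeq start on GRCm38.p6, were present for 3 of the 7 lower host RNAs with an entry (Snhg5, Snhg8 and Snhg12) and for 1 of 8 other host RNAs (Snhg7). Over all 27025 RefSeq genes with an entry, 5.07% held them. A gene counted where any of its listed starts matched. The reverse complement TTATA was present for Gas5, at the second of its 2 starts, and Snhg1, for 0 of the 8 others and for 2.70% of all genes. A further pattern was searched, C followed by 3 bases that are each C or T, at the annotated start. It was present for 2 of the 7 lower host RNAs, 1 of the 8 others and 4.49% of all genes. TATAA and its reverse complement were chosen after these sequences were seen, and a match is a description and not a site. The 40 bases before and 20 bases from the start are printed on the gene's strand, with TATAA in capitals.
Snhg12, chr4:132308638-132308697, plus strand: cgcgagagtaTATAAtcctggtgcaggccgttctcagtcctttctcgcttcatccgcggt
Snhg5, chr9:88522878-88522937, minus strand: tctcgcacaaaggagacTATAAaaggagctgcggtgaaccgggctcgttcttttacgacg
Snhg8, chr3:123508317-123508376, minus strand: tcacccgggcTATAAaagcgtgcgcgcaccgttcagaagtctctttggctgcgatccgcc
Snhg7, chr2:26640225-26640284, minus strand: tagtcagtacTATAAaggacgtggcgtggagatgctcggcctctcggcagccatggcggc

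Placed on the reference, 77 of the 81 snoRNAs lay inside another gene on the same strand. Inside protein-coding genes were 55, with 205 reads for Set1a siRNA and 224 for the negative control siRNA, a ratio of 0.949 (0.781 to 1.15). Inside Snhg genes or Gas5 were 9, and 13 lay in other noncoding genes. The 13 had 31 reads with Set1a siRNA and 40 reads with the negative control siRNA, a ratio of 0.803 (0.486 to 1.32). Of the 69 snoRNAs whose host has a listed transcript, 66 lay in its introns, Snora24 and Snora26 inside an exon, and Snord45c partly in one.

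In the Snhg and Gas5 genes, the summed snoRNA interval included 1 and the summed host interval lay below 1. The 9 snoRNAs summed to 62 reads with Set1a siRNA and 45 reads with the negative control siRNA, a ratio of 1.43 (0.957 to 2.15). Their 6 host RNAs summed to 1457 reads with Set1a siRNA and 1948 reads with the negative control siRNA, a ratio of 0.775 (0.724 to 0.830), and these intervals do not overlap. Snord22 gave 30 of the 62 reads with Set1a siRNA and 16 of the 45 reads with the negative control siRNA, and Snora24 gave 12 with Set1a siRNA and 5 with the negative control siRNA. Without these, an alternative chosen after seeing the data, the other 7 summed to 20 reads with Set1a siRNA and 24 reads with the negative control siRNA, a ratio of 0.864 (0.453 to 1.63), which overlaps the host interval. Snord47, held by Gas5, had 4 reads with Set1a siRNA and 6 reads with the negative control siRNA, a ratio of 0.691 (0.143 to 2.91), on the same side of 1 as Gas5. Snord22 lies in an intron of the listed Snhg1 transcript, and its interval of 1.03 to 3.82 does not reach the interval of Snhg1, 0.574 to 0.825. In the reference Snord22 also overlaps an exon of another Snhg1 transcript, so its reads may come from that transcript. The 4 snoRNAs of Snhg12 summed to 13 reads with Set1a siRNA and 14 reads with the negative control siRNA, a ratio of 0.963 (0.417 to 2.21), which includes the ratio of Snhg12. Within it, Snora61 had 6 reads with Set1a siRNA and 2 with the negative control siRNA, while Snord99 had 1 with Set1a siRNA and 6 with the negative control siRNA.

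**Figure D4:**
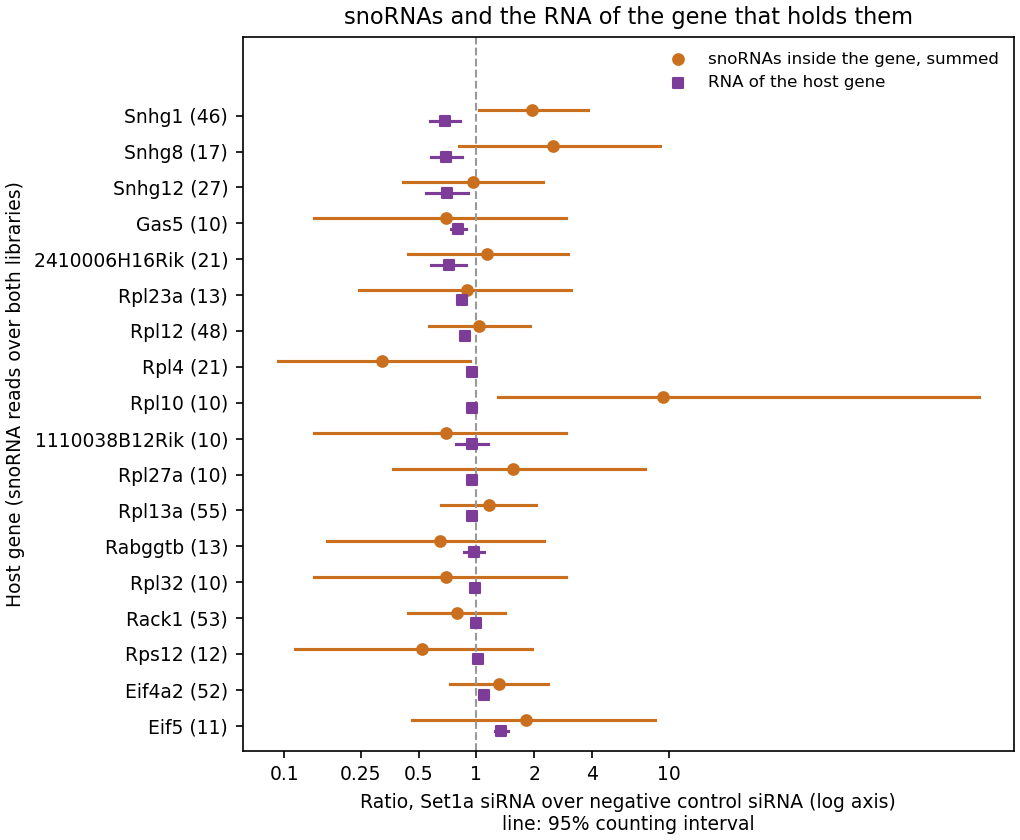
Ratio of Set1a siRNA over negative control siRNA (log axis) for the snoRNAs inside a host gene, summed (circles), and for the RNA of that host (squares), with 95% counting intervals, for 18 of the hosts whose snoRNAs had at least 10 reads over both libraries (in brackets) and whose RNA has reads. The snoRNA interval includes 1 for 15 of them, and the snoRNA and host intervals stay apart for Snhg1 and Rpl10.

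Among the 18 hosts drawn, the snoRNA and host intervals stayed apart for 2, Snhg1 with Snord22 and Rpl10 with Snora70. Intervals that overlap do not show equal ratios, and differences between snoRNA and host were not tested. Rpl10, a ribosomal protein gene, was at 1047 RPKM with Set1a siRNA and 1107 RPKM with the negative control siRNA, a ratio of 0.946 (0.911 to 0.982), beside Snora70 with 9 reads with Set1a siRNA and 1 read with the negative control siRNA. Rpl4, which holds Snord16a, had a ratio of 0.944 (0.923 to 0.966), whose interval meets the upper end of that of the snoRNA. Over the 40 protein-coding hosts the median ratio was 0.955, with a range of 0.779 for Rpl39 to 1.35 for Eif5. Of these 40, 21 had an interval below 1 and 6 one above. As mostly abundant RNAs they are best set beside the genes with more than 2000 reads. Of those genes 31.4% had an interval below 1 and 22.7% one above. The lengths behind these intervals were not checked, and too long a length makes an interval too narrow.

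Of 6 noncoding hosts with other kinds of symbol and a read number, 2 had an interval below 1. That call was met by 11.5% of all genes above the floor. It was met by 20.5% of the 78 lncRNA genes outside the members with 100 to 2000 reads. 2410006H16Rik, which holds Snord49a, Snord49b and Snord65, was at 54.1 RPKM with Set1a siRNA and 75.3 RPKM with the negative control siRNA, a ratio of 0.718 (0.583 to 0.882). 2700038G22Rik, host of Snord93, was at 12.8 RPKM with Set1a siRNA and 16.9 RPKM with the negative control siRNA, a ratio of 0.761 (0.591 to 0.976). The intervals of 1110038B12Rik, AA465934, Dancr and Epb41l4aos included 1, with ratios of 0.948, 1.10, 0.773 and 0.930. Rian, an imprinted RNA with many C/D box snoRNAs in its introns, was at 38.7 RPKM with Set1a siRNA and 50.8 RPKM with the negative control siRNA, with no read number recovered. These 7 hosts were picked with their values in view.

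The genes for proteins of the snoRNA particles varied little in RNA level. Of the 4 C/D core protein genes found, 0 passed 2-fold, and 2 had intervals below 1, a call met by 11.5% of all genes and by 31.4% of those with more than 2000 reads. Nop58 was at 106 RPKM with Set1a siRNA and 122 RPKM with the negative control siRNA, a ratio of 0.869 (0.841 to 0.899). This interval rests on an unchecked length of 9394 nucleotides and would be wider at a shorter one. Fbl, which encodes fibrillarin, was at 216 RPKM with Set1a siRNA and 234 RPKM with the negative control siRNA, a ratio of 0.924 (0.863 to 0.989). Nop56 and Snu13 had ratios of 0.942 and 0.956, with intervals that included 1.

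Of the 4 H/ACA core protein genes, Nop10 alone had an interval below 1, with a ratio of 0.880 (0.811 to 0.954). Its reads rest on an unchecked length of 1390 nucleotides, and a shorter length would widen this interval. Dkc1, which encodes dyskerin, had a ratio of 1.046 (0.967 to 1.13), Nhp2 of 0.999 and Gar1 of 0.966. Over all genes 12.4% had an interval above 1 and 11.5% one below, which is the background for the next counts too. Among 13 genes of snoRNA particle assembly, 1 interval lay above 1 and 1 below, and the median log2 fold was -0.04. Among 10 genes of nonsense-mediated decay, the pathway that degrades several spliced host RNAs, 2 intervals lay above 1 and 2 below, with a median log2 fold of 0.05. No gene of these 4 lists passed 1.5-fold.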

How the data were processed

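RNA of CGR8 cells given Set1a siRNA or a negative control siRNA was sequenced, 1 library per group, grouped by the transfection label. The deposited tables give 1 value for each of 28430 RefSeq transcripts. No header names the unit, and RPKM, scaled by the authors, was inferred from the deposited values, which move in steps of whole reads. Build mm9 and the tools TopHat2 2.0.12, TopHat, SAMtools 0.1.16 and CASAVA are named, per the submitters' processing notes. Which program counted reads, with which strand setting and which rule for reads with several matches, is not given in the sources used here.

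Single-exon small RNAs gave the depth: of those below 20 reads, 138 of 147 with Set1a siRNA and 150 of 156 with the negative control siRNA lay within 0.01 of a whole read. For each transcript, the length nearest the RefSeq or GENCODE length at which both values are whole reads gave the reads, for 95.9% of 22360 transcripts above 0 and for all 102 member transcripts. Several lengths can pass for a well-read transcript, so these shares do not check the lengths. Where the reference length is too long, reads are overcounted and the counting interval is too narrow, though the ratio does not change. GRCm38 annotation (RefSeq GRCm38.p6 and GENCODE M21) served for symbols, lengths, sequences and host genes, and differs from mm9. A gene with several transcripts took the values of the most-read one.

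Ratios carry exact Clopper-Pearson 95% intervals, and reads are not independent molecules. A fold adds 1 RPKM to each value, which understates the change of low genes, and a gene entered where its mean reached 1 RPKM. No p-value was computed. Some host genes are not reported here. Members and lists were chosen with earlier results of these data known. The text names host RNAs above 1 RPKM, the 8 most-read snoRNAs of each class, members whose interval leaves out 1, members around the threshold and core proteins; other names were chosen after their values were seen. Read recovery and intervals were tested on simulated data that started from lengths close to the true ones, so a wrong reference length was not tested. Alternatives were other pseudocounts, floors, folds, scaling, transcripts and member subsets. Python 3.11.15, numpy 2.4.6, pandas 2.3.3, scipy 1.17.1 and edlib 1.3.9.post1 were used.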

Additional observations from a re-analysis of the deposited data

How the results depend on the processing

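The number of members at least 2-fold higher or lower depended on how thinly read members were handled. In place of 14 higher and 17 lower, there were 4 and 7 with a pseudocount of 5 RPKM, 4 and 5 with a floor of 5 RPKM, 3 and 1 where 10 or more reads were required, 9 higher with a 3-fold rule, and 1 and 1 with the added condition of a counting interval that leaves out 1. Fewer members could pass under the read and floor rules by construction. The read ratio of host RNAs was 0.877 (0.356 to 2.12) when only members under 30 reads were kept. The read ratio of the snoRNAs inside Snhg genes or Gas5 moved from 1.43 to 0.864 without Snord22 and Snora24, chosen after seeing the data. The other 13 of 15 alternatives for class ratios and all 21 for class medians moved a value by less than its own interval. So did all 174 for the ratios of single members (11 without control reads have none). For single members the settings were a rescaling and the transcript of highest RPKM. The rescaling was slight and the transcript differed for Snhg14 and Snhg16 alone, so this agreement was largely fixed in advance. Snhg14 went from 0.771 (0.626 to 0.949) to 0.890 (0.698 to 1.14), an interval that includes 1. Scaling by the median of ratios used a factor of 0.995, a log2 shift of -0.0072. Alternatives chosen after seeing the data gave 8 host RNAs with an interval below 1 under that scaling, 7 with the transcript of highest RPKM, 6 with 99% intervals and 6 without hosts that share exons with the other strand; without Gas5 and Snhg1 the host ratio was 0.824. No paired analysis was possible because there was 1 library per group, and no library could be left out. The median log2 fold of C/D box members ranged from -0.40 with a pseudocount of 0.1 to -0.15 with at least 10 reads, and that of H/ACA box members from 0.04 without a floor to 0.30 with at least 10 reads. Depth limits what single snoRNAs can show.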

Other observations

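Other stable small RNAs made by RNA polymerase II or III were listed beside the snoRNAs. Of 12 found, 5 averaged 1 RPKM or more. By the 2-fold rule 3 of these were higher and 2 lower, against 0.772% and 0.407% of all genes. Among 90 genes under 200 nucleotides outside the members, the rule called 18.9% higher and 21.1% lower. Of the 5, 2 had an interval above 1, as did 12.4% of all genes and 2.22% of those short genes. These 2, Rmrp and Rpph1, are longer, with 275 and 325 nucleotides. The 3 others, Scarna2, Scarna9 and Scarna10, had 61, 42 and 71 nucleotides and at most 2 reads in either library. Rmrp, the RNA of the RNase MRP complex that cuts precursor rRNA, was at 20.4 RPKM from 36 reads with Set1a siRNA and 9.29 RPKM from 17 reads with the negative control siRNA, a ratio of 2.20 (1.201 to 4.17). Rpph1, the RNA of RNase P, was at 9.58 RPKM from 20 reads with Set1a siRNA and 2.31 RPKM from 5 reads with the negative control siRNA, a ratio of 4.15 (1.51 to 14.1). Terc, the RNA of telomerase, which ends in an H/ACA domain, had 1 read with Set1a siRNA and 3 with the negative control siRNA. Each of the 9 small Cajal body RNAs (Scarna) had at most 2 reads in a library. These values rest on 1 library per group, and why both RNAs were higher was not tested.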
